A study of Homo sapiens with 3 samples.

Results

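The cell cycle genes described here are a list of 40 genes whose RNA is made when cells copy their DNA and divide. The list holds 15 genes of S phase and 25 genes of G2 and mitosis, and all 40 were found once, by symbol, among the 36601 genes of the deposited matrices. Their levels were read in islets grown from the human embryonic stem cell line HUES8, an established line, by droplet single-cell RNA sequencing, in which each RNA molecule carries a unique molecular identifier (UMI) and is counted once. A magnetic sort had separated the islet cells by CD49a, a surface integrin subunit encoded by ITGA1. Cells that carried CD49a (CD49a-positive), cells depleted of it (CD49a-negative) and cells that were not sorted (unsorted) were then each aggregated again and cultured for 7 days before they were dispersed and sequenced, so the sort preceded the measurement by 7 days. There were 3 libraries, 1 for each of these groups, and no replicates. No test was therefore made: every interval below is a 95% interval that covers counting error only, and the folds are rules of size.

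As background, S-phase genes encode the proteins that load the replicative helicase onto DNA, supply nucleotides and hold the polymerase on its template, and they are switched on by E2F transcription factors as cells leave G1. G2 and mitosis genes encode the cyclin and kinase that start mitosis, the spindle and kinetochore proteins that separate the chromosomes, and the ubiquitin ligase parts that end mitosis; in resting cells they are held silent by the DREAM complex, which binds CHR promoter elements through its MuvB core. Islet endocrine cells divide rarely once they make hormone. Insulin (INS), glucagon (GCG) and somatostatin (SST) mark beta, alpha and delta cells, and TPH1, which makes serotonin, marks enterochromaffin cells that arise in these cultures.

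The libraries held 4512 (CD49a-positive), 2566 (CD49a-negative) and 2811 (unsorted) barcodes with 88397368 to 127119509 UMIs each. A barcode counted as a cell if it had 1000 genes or more and no more than 20% of its UMIs from mitochondrial genes, which left 2394, 1976 and 2256 cells, with a median of 36997 to 48538.5 UMIs. The filter removed 46.9% of CD49a-positive barcodes against 23.0% of CD49a-negative and 19.7% of unsorted barcodes. Levels are given as CPM, the UMIs of a gene in all kept cells of a library scaled to a library total of 1000000 UMIs. ITGA1 stood at 108 CPM in CD49a-positive cells, 33.2 CPM in CD49a-negative cells and 66.2 CPM in unsorted cells, and the endocrine granule gene CHGA was detected in 99.8 to 100% of kept cells. Between 2 and 6 cell barcodes were shared by any pair of libraries. Cell doublets were not removed.

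All 40 members were lowest in CD49a-positive cells. At any size of difference, 57.8% of all genes tested were lower in CD49a-positive than in CD49a-negative cells. Against unsorted cells 57.6% were lower. The summed level of the 15 S-phase members was 98.7 CPM in CD49a-positive cells, 142 CPM in CD49a-negative cells and 122 CPM in unsorted cells. The summed level of the 25 G2 and mitosis members was 82 CPM in CD49a-positive cells, 158 CPM in CD49a-negative cells and 120.0 CPM in unsorted cells. The CD49a-positive library thus held 0.694 times the S-phase level of the CD49a-negative library (interval 0.676 to 0.711) and 0.517 times its G2 and mitosis level (0.504 to 0.531). Of the 40 members, 31 were at least 1.5-fold lower in CD49a-positive than in CD49a-negative cells and 0 were at least 1.5-fold higher, where over all 18633 genes with at least 50 UMIs in the higher library 10.6% were lower and 5.18% higher by the same rule. These 31 were 10 of the 15 S-phase and 21 of the 25 G2 and mitosis members. The median ratio was 0.545 over the members, 0.640 over S-phase members and 0.499 over G2 and mitosis members, against 0.956 over all genes tested. The interval of the ratio lay below 1 for 13 S-phase and 24 G2 and mitosis members. How many of all genes have such an interval was not computed, so this count has no background beside it. Members rested on 104 to 2585 UMIs in a library, so all 40 passed the filter on low counts in every library.

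**Figure D1:**
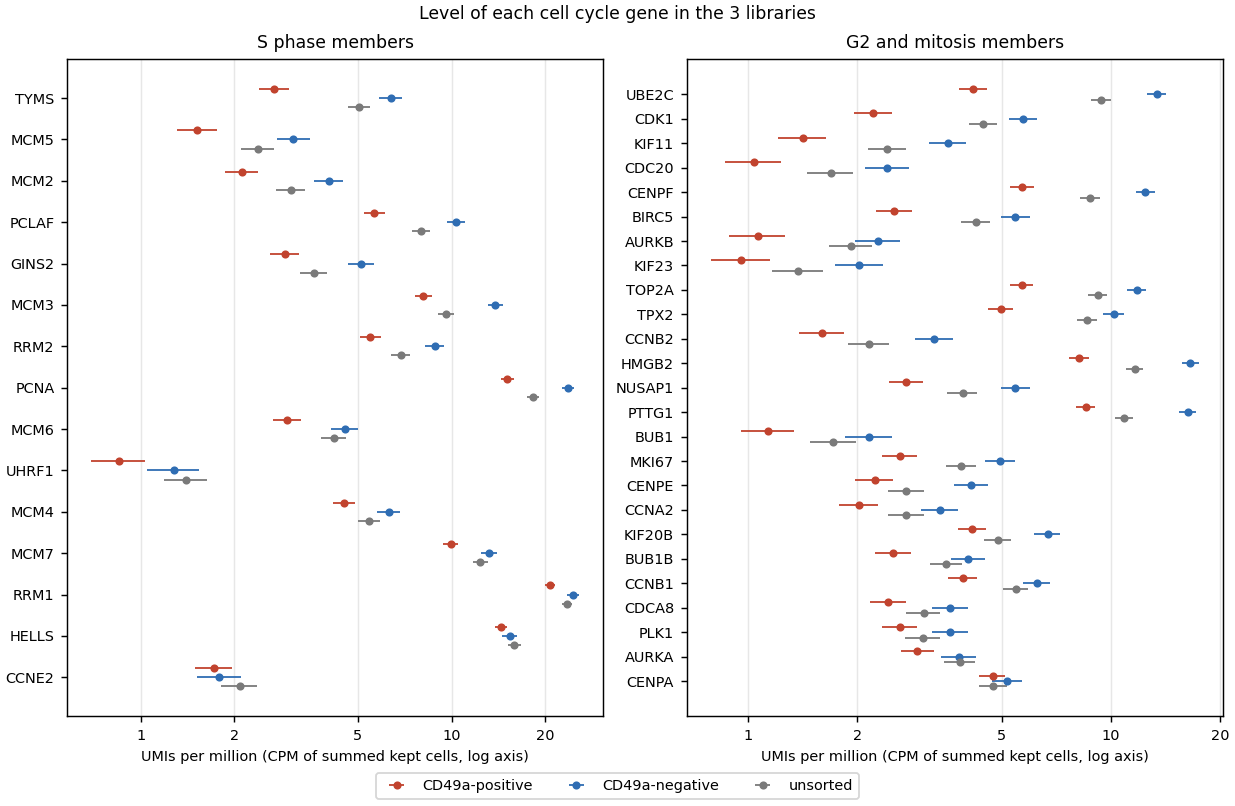
Level of each of the 40 genes in the CD49a-positive, CD49a-negative and unsorted libraries, as CPM of the summed kept cells on a log axis, with exact Poisson 95% intervals as bars (counting error only). S-phase members are on the left and G2 and mitosis members on the right. The CD49a-positive point is the leftmost of the 3 for every gene, and for 36 of the 40 genes the CD49a-negative point is the rightmost. Of all genes tested, 10202 of 18424 were higher in CD49a-negative than in unsorted cells.

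Unsorted cells lay between the sorted groups for most members. Against unsorted cells, 13 members were at least 1.5-fold lower in CD49a-positive cells and 0 higher (all genes: 4.76% lower, 2.06% higher), with a median log2 ratio of -0.49 against -0.03 over all genes. CD49a-negative cells held 2 members at least 1.5-fold above unsorted cells and 0 below (all genes: 2.47% higher, 1.82% lower), with a median log2 ratio of 0.36 against 0.03 over all genes. These 2 were CCNB2 and CENPE, at 1.51 and 1.51 times the unsorted level. Only CCNE2, HELLS, UHRF1 and AURKA were higher in unsorted than in CD49a-negative cells, and the intervals of all 4 ratios included 1. With each cell weighted equally 22 members were at least 1.5-fold lower in CD49a-positive than in unsorted cells, and 23 without the 5% deepest cells, while 1 and 0 members were higher in CD49a-negative than in unsorted cells. The 3 comparisons share libraries, so they are not independent of each other.

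The S-phase members begin with the 6 subunits of the MCM2-7 helicase, which unwinds DNA at the replication fork. MCM2 stood at 2.12 CPM in CD49a-positive cells, 4.03 CPM in CD49a-negative cells and 3.04 CPM in unsorted cells, and MCM5 at 1.52 CPM in CD49a-positive cells, 3.1 CPM in CD49a-negative cells and 2.38 CPM in unsorted cells. MCM3 stood at 8.1 CPM in CD49a-positive cells, 13.8 CPM in CD49a-negative cells and 9.6 CPM in unsorted cells, and MCM6 at 2.96 CPM in CD49a-positive cells, 4.53 CPM in CD49a-negative cells and 4.18 CPM in unsorted cells. These 4 subunits were at 0.491 to 0.653 times the CD49a-negative level in CD49a-positive cells. MCM7 stood at 9.94 CPM in CD49a-positive cells, 13.2 CPM in CD49a-negative cells and 12.4 CPM in unsorted cells, and MCM4 at 4.51 CPM in CD49a-positive cells, 6.28 CPM in CD49a-negative cells and 5.44 CPM in unsorted cells; their ratios of 0.753 (0.694 to 0.817) and 0.718 (0.637 to 0.811) were below 1 but did not reach the 1.5-fold rule.

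The genes of nucleotide supply differed in extent. TYMS, thymidylate synthase, which makes dTMP, stood at 2.69 CPM in CD49a-positive cells, 6.39 CPM in CD49a-negative cells and 5.04 CPM in unsorted cells. Its CD49a-positive over CD49a-negative ratio of 0.421 (0.366 to 0.484) was the lowest of the S-phase members. RRM2, the regulated subunit of ribonucleotide reductase, stood at 5.48 CPM in CD49a-positive cells, 8.81 CPM in CD49a-negative cells and 6.85 CPM in unsorted cells, a ratio of 0.622 (0.559 to 0.691). RRM1, the large subunit of the same enzyme, stood at 20.7 CPM in CD49a-positive cells, 24.6 CPM in CD49a-negative cells and 23.5 CPM in unsorted cells, a ratio of 0.842 (0.794 to 0.893).

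Among the remaining S-phase members, PCNA, the sliding clamp that holds polymerases on DNA, stood at 15.1 CPM in CD49a-positive cells, 23.6 CPM in CD49a-negative cells and 18.3 CPM in unsorted cells. PCLAF, a protein that binds PCNA, stood at 5.65 CPM in CD49a-positive cells, 10.3 CPM in CD49a-negative cells and 7.99 CPM in unsorted cells. GINS2, part of the active helicase complex, stood at 2.91 CPM in CD49a-positive cells, 5.11 CPM in CD49a-negative cells and 3.61 CPM in unsorted cells. UHRF1, which passes DNA methylation on to the new strand, stood at 0.85 CPM in CD49a-positive cells, 1.28 CPM in CD49a-negative cells and 1.4 CPM in unsorted cells. The CD49a-positive over CD49a-negative ratios of these 4 ran from 0.548 for PCLAF and 0.569 for GINS2 to 0.64 for PCNA and 0.665 for UHRF1. HELLS, a chromatin remodelling ATPase, showed little difference at 14.4 CPM in CD49a-positive cells, 15.4 CPM in CD49a-negative cells and 15.9 CPM in unsorted cells, a ratio of 0.938 (0.872 to 1.01). CCNE2, a cyclin of the step from G1 into S phase, had a ratio of 0.961 (0.776 to 1.19), the nearest to 1 of all 40.

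The cyclins and the kinase that start mitosis are CDK1, CCNB1, CCNB2 and CCNA2; CCNA2 also acts in S phase. CDK1 (ENSG00000170312, GRCh38 chromosome 10, 60778331 to 60794852, plus strand) stood at 2.21 CPM in CD49a-positive cells, 5.72 CPM in CD49a-negative cells and 4.45 CPM in unsorted cells, a ratio of 0.387 (0.332 to 0.45) between CD49a-positive and CD49a-negative cells. CCNB1 stood at 3.9 CPM in CD49a-positive cells, 6.23 CPM in CD49a-negative cells and 5.46 CPM in unsorted cells. CCNB2 stood at 1.59 CPM in CD49a-positive cells, 3.25 CPM in CD49a-negative cells and 2.15 CPM in unsorted cells. All 3 partner cyclins were at least 1.5-fold lower in CD49a-positive than in CD49a-negative cells. CCNA2, at 2.02 CPM in CD49a-positive cells, 3.38 CPM in CD49a-negative cells and 2.72 CPM in unsorted cells, had a ratio of 0.597 (0.501 to 0.71), and those of CCNB1 and CCNB2 were 0.626 and 0.49.

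The exit from mitosis runs through the anaphase-promoting complex. UBE2C (ENSG00000175063, GRCh38 chromosome 20, 45812576 to 45816957, plus strand), the ubiquitin-conjugating enzyme of this complex, rested on 510 UMIs in CD49a-positive, 1130 in CD49a-negative and 1034 in unsorted cells, or 4.17 CPM in CD49a-positive cells, 13.4 CPM in CD49a-negative cells and 9.39 CPM in unsorted cells. Its CD49a-positive over CD49a-negative ratio of 0.312 (0.28 to 0.347) was the lowest of all 40 members. CDC20, which activates the complex, stood at 1.04 CPM in CD49a-positive cells, 2.41 CPM in CD49a-negative cells and 1.69 CPM in unsorted cells. PTTG1, or securin, which the complex destroys to free the sister chromatids, stood at 8.52 CPM in CD49a-positive cells, 16.3 CPM in CD49a-negative cells and 10.9 CPM in unsorted cells. BUB1 and BUB1B are kinases of the checkpoint that restrains the complex until chromosomes are attached. BUB1 stood at 1.14 CPM in CD49a-positive cells, 2.15 CPM in CD49a-negative cells and 1.72 CPM in unsorted cells, and BUB1B at 2.51 CPM in CD49a-positive cells, 4.03 CPM in CD49a-negative cells and 3.51 CPM in unsorted cells. The ratios of these 4 genes ran from 0.43 for CDC20 to 0.622 for BUB1B.

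The mitotic kinases and the chromosomal passenger complex also differed in extent. AURKB, the kinase of the passenger complex, stood at 1.06 CPM in CD49a-positive cells, 2.28 CPM in CD49a-negative cells and 1.92 CPM in unsorted cells. BIRC5, or survivin, its partner, stood at 2.53 CPM in CD49a-positive cells, 5.45 CPM in CD49a-negative cells and 4.23 CPM in unsorted cells. Both had ratios near each other, 0.465 (0.37 to 0.584) for AURKB and 0.463 (0.4 to 0.536) for BIRC5. CDCA8, or borealin, the third part of the complex in this list, PLK1 and AURKA, the kinase of the spindle poles, did not reach the 1.5-fold rule, with ratios of 0.675 (0.574 to 0.795), 0.725 (0.618 to 0.851) and 0.768 (0.659 to 0.896).

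Next come the kinetochore proteins, the motors and the microtubule proteins TPX2 and NUSAP1. CENPF (ENSG00000117724, GRCh38 chromosome 1, 214603195 to 214664588, plus strand), which coats the kinetochore from G2 on, stood at 5.69 CPM in CD49a-positive cells, 12.4 CPM in CD49a-negative cells and 8.73 CPM in unsorted cells. CENPE, a kinetochore motor, stood at 2.23 CPM in CD49a-positive cells, 4.12 CPM in CD49a-negative cells and 2.72 CPM in unsorted cells. CENPA, the histone H3 variant that marks the centromere, stood apart with a ratio of 0.91 (0.803 to 1.03), an interval that includes 1. Among the motors, KIF11, which pushes the spindle poles apart, stood at 1.41 CPM in CD49a-positive cells, 3.55 CPM in CD49a-negative cells and 2.42 CPM in unsorted cells. KIF23, which bundles microtubules for cytokinesis, stood at 0.956 CPM in CD49a-positive cells, 2.02 CPM in CD49a-negative cells and 1.37 CPM in unsorted cells, and KIF20B at 4.15 CPM in CD49a-positive cells, 6.68 CPM in CD49a-negative cells and 4.88 CPM in unsorted cells. The ratios of these 3 motors were 0.399, 0.473 and 0.621. TPX2, which nucleates spindle microtubules and activates AURKA, stood at 4.96 CPM in CD49a-positive cells, 10.2 CPM in CD49a-negative cells and 8.57 CPM in unsorted cells. NUSAP1, which bundles spindle microtubules, stood at 2.72 CPM in CD49a-positive cells, 5.45 CPM in CD49a-negative cells and 3.9 CPM in unsorted cells, and both were at 0.488 to 0.499 times the CD49a-negative level in CD49a-positive cells.

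The last group acts on mitotic chromosomes. MKI67 (ENSG00000148773, GRCh38 chromosome 10, 128096659 to 128126385, minus strand), the antigen of the Ki-67 stain, stood at 2.62 CPM in CD49a-positive cells, 4.95 CPM in CD49a-negative cells and 3.87 CPM in unsorted cells. TOP2A (ENSG00000131747, GRCh38 chromosome 17, 40388516 to 40417950, minus strand), which untangles sister chromatids, stood at 5.67 CPM in CD49a-positive cells, 11.8 CPM in CD49a-negative cells and 9.19 CPM in unsorted cells. HMGB2, a DNA-bending chromatin protein, stood at 8.18 CPM in CD49a-positive cells, 16.5 CPM in CD49a-negative cells and 11.6 CPM in unsorted cells. Their CD49a-positive over CD49a-negative ratios were 0.529 (0.456 to 0.614), 0.482 (0.437 to 0.532) and 0.494 (0.455 to 0.537). Some of these values are uncertain because coding genes overlap the members in the annotation. On the same strand these are HELLS (TBC1D12), CENPA (SLC35F6), BUB1B (BUB1B-PAK6), RRM2, PCLAF and NUSAP1, and on the other strand TYMS, MCM2, MCM7, CCNE2, GINS2, CCNA2 and PLK1; how reads were assigned there is not given in the sources used here.

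**Figure D2:**
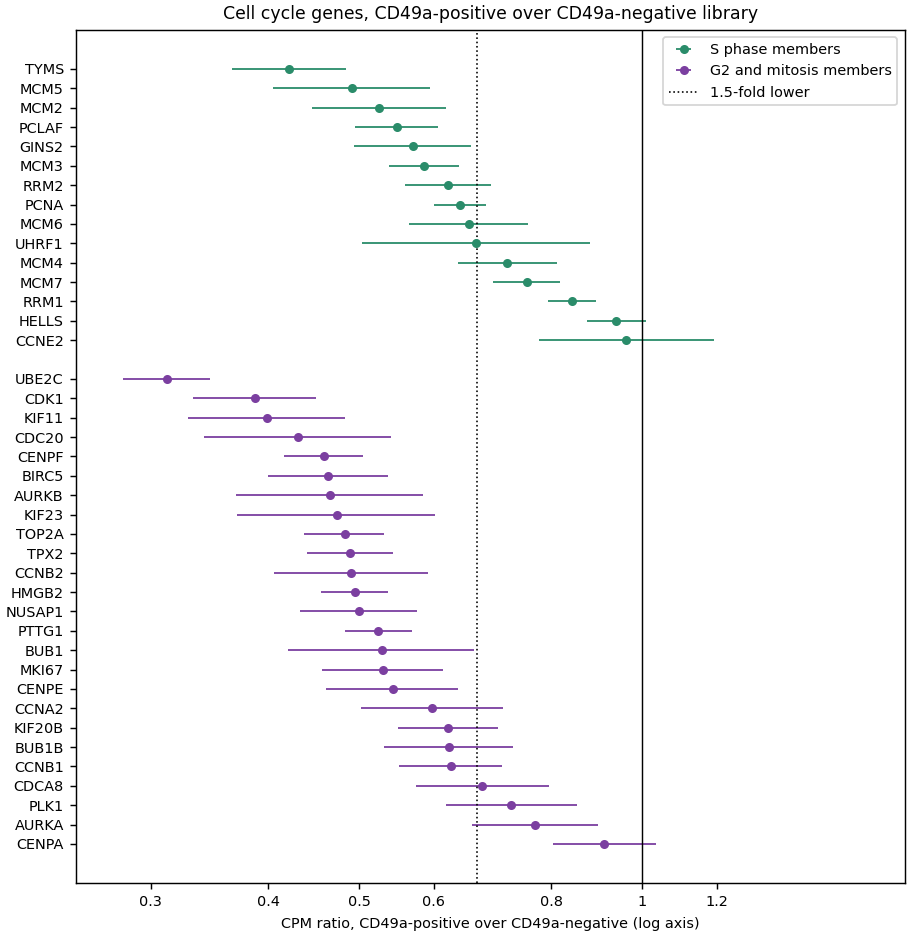
Ratio of CPM, CD49a-positive over CD49a-negative library, for each member on a log axis, with exact conditional binomial 95% intervals as bars (counting error only). The dotted line marks 1.5-fold lower and the solid line no difference. No member lies to the right of 1, UBE2C lies farthest left at 0.312, and the bars of CCNE2, HELLS and CENPA cross 1.

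S-phase members made up more of the cell cycle UMIs in CD49a-positive cells than in the other groups. Total S-phase UMIs over total G2 and mitosis UMIs came to 1.2 (1.17 to 1.24) in CD49a-positive, 0.898 (0.876 to 0.92) in CD49a-negative and 1.01 (0.99 to 1.04) in unsorted cells. Without the 2 members with the most UMIs in each list the values were 0.963, 0.749 and 0.819, in the same order of libraries, so that the CD49a-positive value was then below 1. The sums do not say which cells held the UMIs, and the next comparisons separate the cells.

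A small group of cells carried many members at once. To compare libraries of unequal depth, each cell was thinned to 10000 UMIs, which left 2064 CD49a-positive, 1832 CD49a-negative and 2076 unsorted cells and left out 330, 144 and 180 shallower ones. At that depth 95.6% of CD49a-positive, 92.5% of CD49a-negative and 93.8% of unsorted cells had 0 or 1 of the 25 G2 and mitosis members. At least 5 of the 25 were detected in 25 of 2064 cells (1.21%, 0.785 to 1.78%) of the CD49a-positive library, 50 of 1832 cells (2.73%, 2.03 to 3.58%) of the CD49a-negative library and 44 of 2076 cells (2.12%, 1.54 to 2.83%) of the unsorted library. The CD49a-positive share was 0.444 (0.263 to 0.731) times the CD49a-negative share and 0.571 (0.335 to 0.955) times the unsorted share, and the CD49a-negative share was 1.29 (0.841 to 1.98) times the unsorted share. The intervals of the first pair of ratios lay below 1 and that of the third included 1. Over 10 settings of depth, cut, gene list and cell filter, the reported one included, the interval of the CD49a-positive over CD49a-negative ratio stayed below 1 in all 10, and that of the CD49a-positive over unsorted ratio in 5 of 10. These cells are called G2/M cells from here on, a name for the cut, since division itself was not measured. Near the cut, 3 or 4 members were detected in 9, 22 and 23 cells of the CD49a-positive, CD49a-negative and unsorted libraries, 5 or 6 in 3, 7 and 11 cells, and at least 10 in 19, 30 and 28 cells. Without thinning, all kept cells gave 3.01% of CD49a-positive, 5.47% of CD49a-negative and 4.7% of unsorted cells.

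The S-phase cut gave the same order of libraries. At least 5 of the 15 S-phase members were detected in 28 of 2064 cells (1.36%, 0.903 to 1.95%) of the CD49a-positive library, 59 of 1832 cells (3.22%, 2.46 to 4.13%) of the CD49a-negative library and 51 of 2076 cells (2.46%, 1.83 to 3.22%) of the unsorted library, a CD49a-positive over CD49a-negative ratio of 0.421 (0.259 to 0.671). Unthinned, the S-phase cut passed 17.5% of CD49a-positive, 18.3% of CD49a-negative and 18.0% of unsorted cells, nearly one value in all 3 libraries. Both cuts were passed by 16 CD49a-positive, 28 CD49a-negative and 26 unsorted cells. These were most of the 25, 50 and 44 G2/M cells, so that name does not set them apart from S phase. The S-phase cut alone was passed by 12, 31 and 25 cells of these libraries and the G2 and mitosis cut alone by 9, 22 and 18 cells. In all, 37, 81 and 69 cells passed at least 1 cut. Cells past the G2 and mitosis cut were deeper than the other cells before thinning, with medians of 58225 against 53999 UMIs in the CD49a-positive library, 56615 against 38907 in the CD49a-negative library and 60403.5 against 44437 in the unsorted library; the part of depth in the shares beyond the thinning was not tested.

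**Figure D3:**
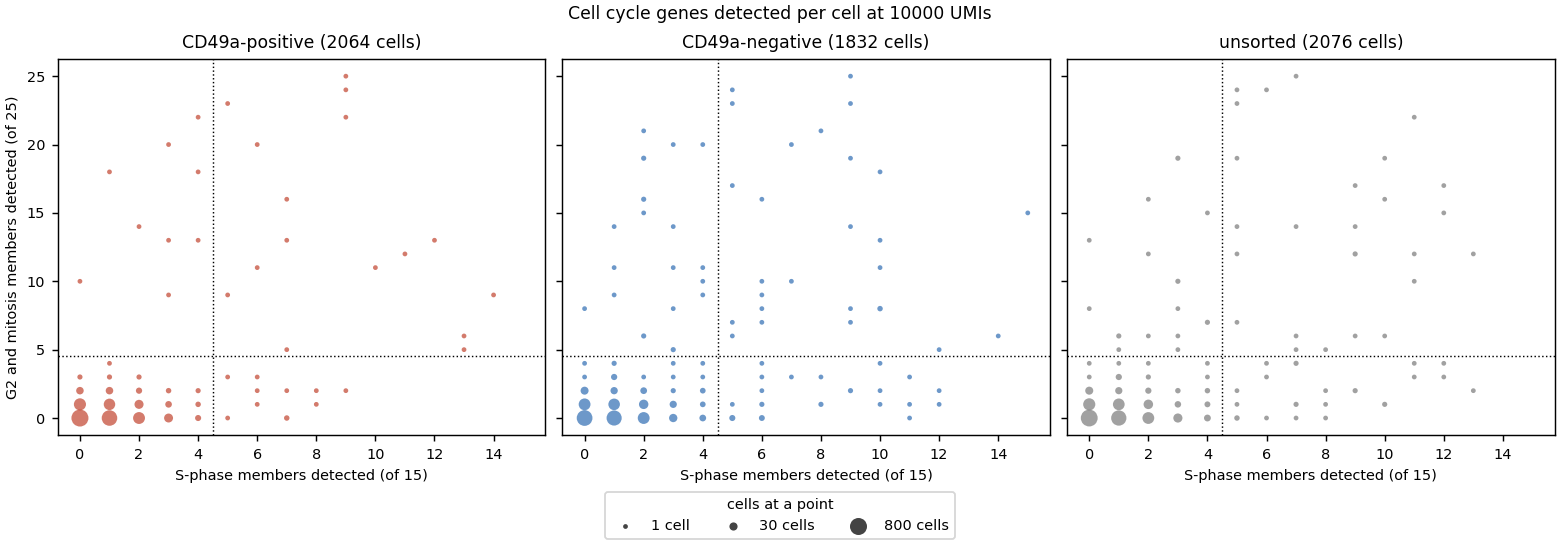
Number of S-phase members (horizontal axis, of 15) and of G2 and mitosis members (vertical axis, of 25) detected in each cell at 10000 UMIs, in the CD49a-positive (2064 cells), CD49a-negative (1832) and unsorted (2076) libraries. Dot area grows with the number of cells at a point and dotted lines mark the cuts at 5 members. Nearly all cells sit in the lower left corner, and a thin cloud of 37, 81 and 69 cells of these libraries lies beyond a line.

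The members differed in how much of their RNA lay in these few cells. For each G2 and mitosis member, cells were chosen by at least 5 of the other 24 members, so that the gene itself did not choose them; for S-phase members the 119 cells past the G2 and mitosis cut were used, 1.99% of the cells of all libraries. MKI67 had 98.1, 96.7 and 94.5% of its UMIs in the chosen cells of the CD49a-positive, CD49a-negative and unsorted libraries. TOP2A had 93.8, 94.3 and 96.1%, CENPF 92.9, 96 and 94.2%, UBE2C 94.1, 93.8 and 94% and AURKB 96.9, 93.3 and 95.2% in the same order. At 10000 UMIs MKI67 was detected in 66.1% of the chosen cells and 0.12% of all others, and TOP2A in 75.9% and 0.393%. The share of the other cells with a UMI, which includes any free RNA from lysed cells, was thus near 0 for both.

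Other members of the G2 and mitosis list were spread more widely. CENPA had 12.8, 32.4 and 23.9% of its UMIs in the chosen cells of the CD49a-positive, CD49a-negative and unsorted libraries, AURKA 35.5, 48 and 44.9%, PLK1 29.2, 54.6 and 45.5%, KIF20B 34.4, 53.1 and 42.7% and PTTG1 37.6, 58.3 and 51%. In all 5 the CD49a-positive share was the lowest of the 3. Cells past the cut were also the smallest part of that library, at 1.21% against 2.73% of CD49a-negative and 2.12% of unsorted cells. The level in chosen over other cells did not keep the order of the shares. In the same order of libraries it was 39.6-, 25.3- and 28.8-fold for AURKA and 44.3-, 39.0- and 37.7-fold for PTTG1. For PLK1 it was 29.8-, 33.1- and 28.8-fold. Over the 25 members the median was 79.9, 84.7 and 81.6% in these libraries. CENPA, AURKA and PLK1 are also the 3 members of the list with CD49a-positive over CD49a-negative ratios nearest to 1; over unsorted cells CENPA, PLK1 and KIF20B were nearest, at 0.996, 0.865 and 0.851. CENPA was detected in 23.5% of the chosen and 3.84% of the other cells.

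S-phase members lay mostly outside the cells past the G2 and mitosis cut, apart from a few. RRM2 had 75.8, 86 and 81% of its UMIs there in CD49a-positive, CD49a-negative and unsorted cells, TYMS 59.6, 56.8 and 54.1% and PCLAF 54.4, 57.8 and 56.6%. UHRF1 had 49, 41.3 and 46.8%. The helicase subunits, PCNA, RRM1 and HELLS had most of their UMIs outside these cells: MCM7 had 7.95, 15 and 13.9% inside, MCM3 9.47, 13.9 and 14.7%, HELLS 10.5, 14.6 and 15.8%, RRM1 13.4, 19.9 and 17.3% and PCNA 13.5, 19.3 and 18.1%. PCNA was detected in 52.9% of the chosen cells and in 12.8% of the others at 10000 UMIs, where MKI67 was in 0.12% of the others. The helicase subunits were found in fewer of the other cells, MCM7 in 9.55% and MCM3 in 8.29%. MCM4, MCM6, MCM2 and MCM5 were found in 4.03, 2.78, 2.15 and 1.52%, near the 2.61% of PCLAF. The other cells include those past the S-phase cut alone. Within ribonucleotide reductase, RRM1 had 16.7% and RRM2 81.1% of its UMIs in the chosen cells over all libraries.

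**Figure D4:**
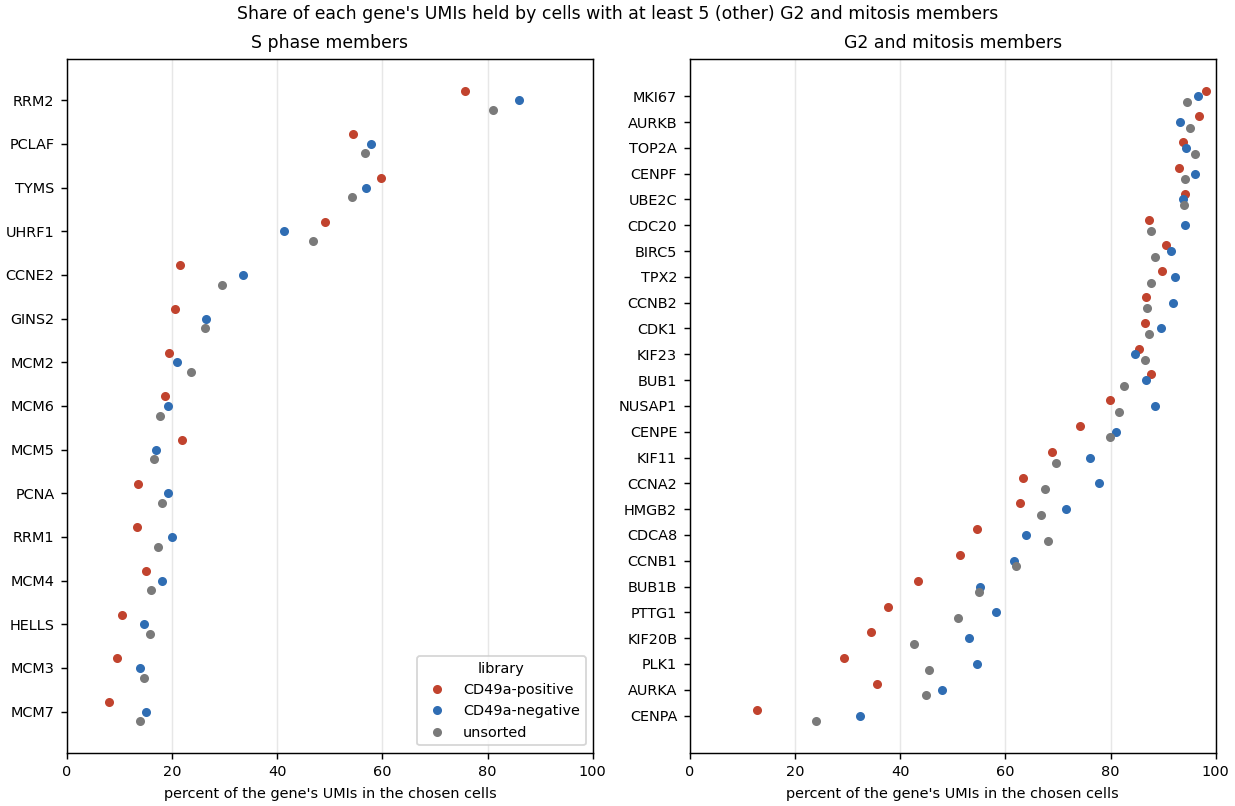
Percent of each gene's UMIs that lay in cells with at least 5 G2 and mitosis members other than the gene itself, one point for each of the CD49a-positive, CD49a-negative and unsorted libraries (no error bars, 1 library a point). S-phase members are on the left and G2 and mitosis members on the right. MKI67 at the top right has 98.1, 96.7 and 94.5% there, CENPA at the bottom right 12.8, 32.4 and 23.9%, and MCM7 at the bottom left 7.95, 15 and 13.9%.

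Among cells past at least 1 cut, the members were not lower in the CD49a-positive library. Their summed S-phase level was 1267 CPM in CD49a-positive, 1073 CPM in CD49a-negative and 1081 CPM in unsorted cells. Their G2 and mitosis level was 2671, 2508 and 2217 CPM in the same order. The CD49a-positive over CD49a-negative ratio inside these cells was 1.18 (1.13 to 1.24) for S-phase and 1.07 (1.03 to 1.1) for G2 and mitosis members; these cells were chosen by the same members, so the values are a description. In cells past neither cut the ratios were 0.805 (0.78 to 0.83) and 0.837 (0.795 to 0.881). The remaining cells held 73.5% of S-phase UMIs in the CD49a-positive, 61.6% in the CD49a-negative and 63.4% in the unsorted library, but only 33, 19.8 and 23.1% of G2 and mitosis UMIs.

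The promoters of the members differ in letters between the phase lists. RefSeq promoters on GRCh38.p14, from 250 bases before to 50 after a gene's start, were found for 32 of the 40 members (12 S-phase, 20 G2 and mitosis), in 42 promoters since a gene can have several. AURKA, BIRC5, CCNE2, HMGB2, MCM4, MCM5, TPX2 and UBE2C had no entry. The CHR letters TTTGAA or TTTAAA were on either strand in 17 of the 20 G2 and mitosis genes and 2 of the 12 S-phase genes, against 27.9% of all 27305 genes of the table. The CCAAT box, CCAAT on either strand, was in 18 of 20 and 10 of 12 genes, against 39.7% of all. The E2F letters TTTCGCGC or TTGGCGC, the second of which also covers TTTGGCGC, were in 2 of 20 and 7 of 12 genes, against 4.19% of all. TTTAAA reads the same on both strands, and the E2F letters can overlap a CCAAT box. The promoters below are examples from members with the most UMIs among those with the letters searched for in their list. CENPF and TOP2A have CHR and CCAAT letters, and HELLS and MCM7 have E2F letters. PTTG1, with more UMIs and 49.9% of them in the chosen cells, also had CHR and CCAAT letters but is not shown. Nor are MKI67, with the largest share there (96.3%) and 2 CHR and 2 CCAAT matches, and MCM3, with 12.8% and 1 E2F match. Capitals mark these matches, the CHR and CCAAT letters in CENPF and TOP2A and the E2F letters in HELLS and MCM7, all written along the gene's own strand.
CENPF (chr1:214602945-214603244, plus strand): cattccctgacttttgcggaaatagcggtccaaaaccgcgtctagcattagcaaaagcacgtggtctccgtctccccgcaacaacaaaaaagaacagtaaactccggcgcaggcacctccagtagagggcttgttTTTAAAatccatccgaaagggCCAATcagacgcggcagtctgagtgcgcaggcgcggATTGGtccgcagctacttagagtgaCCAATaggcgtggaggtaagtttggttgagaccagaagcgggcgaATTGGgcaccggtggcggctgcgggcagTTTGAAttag
TOP2A (chr17:40417847-40418146, minus strand): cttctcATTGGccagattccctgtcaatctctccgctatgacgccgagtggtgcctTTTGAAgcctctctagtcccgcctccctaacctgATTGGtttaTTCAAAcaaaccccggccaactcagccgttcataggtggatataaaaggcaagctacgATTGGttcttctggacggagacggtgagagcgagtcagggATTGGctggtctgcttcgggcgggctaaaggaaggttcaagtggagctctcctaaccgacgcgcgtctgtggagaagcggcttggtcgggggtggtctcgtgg
HELLS (chr10:94545538-94545837, plus strand): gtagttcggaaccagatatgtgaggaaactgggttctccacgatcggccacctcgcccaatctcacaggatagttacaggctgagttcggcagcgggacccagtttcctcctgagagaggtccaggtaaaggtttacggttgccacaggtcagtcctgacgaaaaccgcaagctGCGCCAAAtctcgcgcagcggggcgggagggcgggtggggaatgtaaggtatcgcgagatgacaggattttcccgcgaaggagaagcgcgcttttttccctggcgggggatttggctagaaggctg
MCM7 (chr7:100101348-100101647, minus strand): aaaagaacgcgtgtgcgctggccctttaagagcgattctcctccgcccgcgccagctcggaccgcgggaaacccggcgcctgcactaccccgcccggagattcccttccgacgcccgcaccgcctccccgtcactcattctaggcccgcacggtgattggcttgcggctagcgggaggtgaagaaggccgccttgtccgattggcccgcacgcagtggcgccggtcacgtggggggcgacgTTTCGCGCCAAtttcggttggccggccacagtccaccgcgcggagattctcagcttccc
CENPF and TOP2A had 94.6 and 94.8% of their UMIs in the chosen cells, HELLS and MCM7 13.5 and 12.3%. The letters did not sort the members by this share: AURKB, with 94.9% of its UMIs in the chosen cells, had no CHR letters in either promoter, while CENPA, with 22.2%, had 3 CHR and 2 CCAAT matches and PLK1, with 42.9%, had 5 CHR matches. A match is a run of letters, not a site shown to be bound, and no match says nothing of any factor.

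A further 114 cell cycle genes outside the 40 were read in the same cells. They did not choose the cells, though they take part in the same programme. In the 119 cells past the G2 and mitosis cut, against all other cells, 46 of 46 further G2 and mitosis genes were at least 2-fold higher, with a median of 79.2-fold, and 34 of 35 further S-phase genes, with a median of 12.3-fold. Of all 21159 genes with at least 50 UMIs in these cells and the others together, 7.68% were at least 2-fold higher in the G2/M cells and 7.36% were lower by that fold. The median ratio over all of them was 0.993. At any size of difference 49.1% were higher over all libraries, and 46.4% were lower in CD49a-positive, 54.2% in CD49a-negative and 52.2% in unsorted cells, each library with its own minimum of 50 UMIs. The further S-phase genes and the further G2 and mitosis genes were both highest in cells past both cuts. Between cells past 1 cut alone, each list was higher past the cut of its own phase. In cells past the S-phase cut alone the further S-phase genes summed to 1404 CPM and the further G2 and mitosis genes to 710.2 CPM. In cells past both cuts they summed to 2530.2 and 4839.5 CPM, in cells past the G2 and mitosis cut alone to 593 and 2565 CPM, and in cells past neither to 232 and 183 CPM.

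Between libraries, 11 of the 35 further S-phase genes and 35 of the 46 further G2 and mitosis genes were at least 1.5-fold lower in CD49a-positive than in CD49a-negative cells, and 0 of either list were higher, where all genes gave 10.6% lower and 5.18% higher. Their median log2 ratios were -0.45 and -0.75. The 3 further S-phase genes with the most UMIs were apart by less than 1.5-fold: DUT, which removes dUTP, stood at 79.9 CPM in CD49a-positive cells, 95.8 CPM in CD49a-negative cells and 85.5 CPM in unsorted cells, with RPA2 at a ratio of 0.858 (0.81 to 0.909) and SLBP at 0.746 (0.703 to 0.791). At least 2-fold lower were TK1, thymidine kinase, at 0.711, 1.92 and 1.24 CPM in CD49a-positive, CD49a-negative and unsorted cells, CLSPN at 1.03, 2.33 and 2.03 CPM, CDC45 at 0.539, 1.22 and 0.945 CPM and CDT1 at 1.04, 2.23 and 1.97 CPM in the same order. CDC45 and CDT1 take part in helicase activation and loading, and CLSPN in the replication checkpoint.

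Of the further G2 and mitosis genes, the 3 with the most UMIs had ratios of 0.83 (0.791 to 0.871) for BUB3, 0.643 (0.613 to 0.675) for CKS1B and 1 (0.945 to 1.06) for G2E3. At least 2-fold lower in CD49a-positive than in CD49a-negative cells were ASPM, a spindle pole protein, at 2.17, 5.16 and 3.47 CPM in CD49a-positive, CD49a-negative and unsorted cells, and KIF20A at 0.58, 1.34 and 0.836 CPM in that order. The same held for NDC80, a kinetochore protein, at 1.12, 2.27 and 1.93 CPM, and HJURP, which loads CENPA, at 0.441, 1.02 and 0.763 CPM. It also held for GTSE1, NEK2, PBK and CENPU, with ratios of 0.465, 0.466, 0.473 and 0.491.

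Of the 6 G1 cyclins and their kinases, 1 was at least 2-fold higher in the G2/M cells, where all genes gave 7.68%. CCND2, a D-type cyclin, was at 0.821 times (0.757 to 0.889) its level in other cells, CDK4 at 1.34 times (1.24 to 1.45) and CDK6 at 1.15 times (1.01 to 1.3). CDK2, the kinase of S phase, was 12.7-fold (9.9 to 16.1) higher and the 1 gene past 2-fold. Between CD49a-positive, CD49a-negative and unsorted cells CCND2 stood at 90.2, 103 and 98.8 CPM, CDK4 at 57.2, 76.5 and 61.7 CPM and CDK6 at 28.7, 29.8 and 28.3 CPM, and 2 of the 6 genes were at least 1.5-fold lower in CD49a-positive than in CD49a-negative cells (all genes: 10.6%).

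Of the 7 CDK inhibitors, 3 were at least 2-fold higher in the G2/M cells (all genes: 7.68%) and 0 at least 2-fold lower (7.36%). CDKN2C, or p18, was 344-fold (223 to 556) higher in cells past the G2 and mitosis cut, and 89.6% of its UMIs lay there. CDKN2D, or p19, was 4.89-fold (4.6 to 5.2) higher. CDKN1C, or p57, which holds cells out of the cycle, was lower there, at 0.591 times (0.553 to 0.631) its level in other cells. By library this ratio was 0.525 (0.454 to 0.604) in CD49a-positive, 0.581 (0.518 to 0.65) in CD49a-negative and 0.691 (0.625 to 0.761) in unsorted cells. Within cells of 1 hormone it was 0.619 (0.56 to 0.682) among INS cells and 0.484 (0.392 to 0.592) among GCG cells over all libraries, although the interval for unsorted GCG cells alone included 1. Between libraries CDKN1C stood at 224 CPM in CD49a-positive cells, 179.6 CPM in CD49a-negative cells and 195 CPM in unsorted cells, CDKN2D at 29.9, 42.5 and 32.2 CPM and CDKN1B at 20, 22 and 20.5 CPM in that order of libraries. Of the 6 inhibitors with enough UMIs, where all genes gave 5.18% higher and 10.6% lower, CDKN2B was at least 1.5-fold higher in CD49a-positive than in CD49a-negative cells, a ratio of 1.61 (1.4 to 1.86), and CDKN2C at 0.425 (0.29 to 0.617) was lower.

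Of the 20 pocket proteins, E2F factors and MuvB regulators, 9 were at least 2-fold higher in cells past the G2 and mitosis cut, against 7.68% of all genes. E2F1 was 20.9-fold (18.1 to 24.1), MYBL2, the MuvB partner of S phase, 91.7-fold (72.1 to 117) and FOXM1, its partner in G2, 86.9-fold (72.8 to 104) higher; these 3 were chosen after their values were seen. The 3 genes of the list with the most UMIs were near 1, with RBBP4 at 1.29, TFDP2 at 1.08 and RB1 at 1.45 times their level in other cells. Between libraries 4 of the 18 tested were at least 1.5-fold lower in CD49a-positive than in CD49a-negative cells (all genes: 10.6%) and 0 higher (5.18%), and RBBP4, TFDP2 and RB1 had CD49a-positive over CD49a-negative ratios of 1.13 (1.1 to 1.16), 1.15 (1.12 to 1.18) and 1.08 (1.05 to 1.11). MYBL2 was lower, at 0.443 (0.327 to 0.597). E2F2 was at 0.476 (0.287 to 0.774) times the unsorted level in CD49a-positive cells.

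The hormone identity of G2/M cells differed between libraries. A cell was given an identity at 10000 UMIs by INS, GCG or SST at 300 UMIs or more and TPH1 at 3 or more. Of the cells past the G2 and mitosis cut, INS alone was found in 14 of 25 (56%, 34.9 to 75.6%) of the CD49a-positive, 6 of 50 (12%, 4.53 to 24.3%) of the CD49a-negative and 13 of 44 (29.5%, 16.8 to 45.2%) of the unsorted cells. In cells past neither cut INS alone was found in 63%, 20.1% and 34.3%, so the G2/M cells followed the order of their libraries. GCG alone was found in 6 of 25 (24%, 9.36 to 45.1%) of the CD49a-positive, 13 of 50 (26%, 14.6 to 40.3%) of the CD49a-negative and 7 of 44 (15.9%, 6.64 to 30.1%) of the unsorted G2/M cells, against 8.53%, 20.7% and 15.6% of cells past neither cut.

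Cells with TPH1 alone were few among the G2/M cells of the CD49a-negative and unsorted libraries. They were 2 of 25 (8%, 0.984 to 26%) of the CD49a-positive, 3 of 50 (6%, 1.25 to 16.5%) of the CD49a-negative and 1 of 44 (2.27%, 0.0575 to 12%) of the unsorted cells past the G2 and mitosis cut. In cells past neither cut they were 3.16%, 19.8% and 17.5%. No hormone past its cut was found in 2 of 25 (8%, 0.984 to 26%) of the CD49a-positive, 19 of 50 (38%, 24.7 to 52.8%) of the CD49a-negative and 15 of 44 (34.1%, 20.5 to 49.9%) of the unsorted G2/M cells, against 17.5%, 25.2% and 20.7% of cells past neither cut. These shares of G2/M cells hang on the hormone cut: they were 4, 20 and 15.9% in the CD49a-positive, CD49a-negative and unsorted libraries at 100 UMIs and 48, 64 and 50% at 500 UMIs. Several cuts were passed by 1, 7 and 7 G2/M cells of the CD49a-positive, CD49a-negative and unsorted libraries, which can also be droplets with a pair of cells.

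Cells past the S-phase cut alone carried GCG more often than cells past neither cut in the CD49a-negative and unsorted libraries. GCG alone was found in 3 of 12 (25%, 5.49 to 57.2%) of the CD49a-positive, 14 of 31 (45.2%, 27.3 to 64%) of the CD49a-negative and 12 of 25 (48%, 27.8 to 68.7%) of the unsorted cells of this kind. INS alone was found in 6 of 12 (50%, 21.1 to 78.9%), 1 of 31 (3.23%, 0.0816 to 16.7%) and 2 of 25 (8%, 0.984 to 26%) of them. The median GCG count in 10000 UMIs was 11.5 in CD49a-positive, 418 in CD49a-negative and 438 in unsorted cells of this kind, against 1, 9 and 3 in cells past neither cut. The intervals are wide because each group holds 12 to 31 cells.

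**Figure D5:**
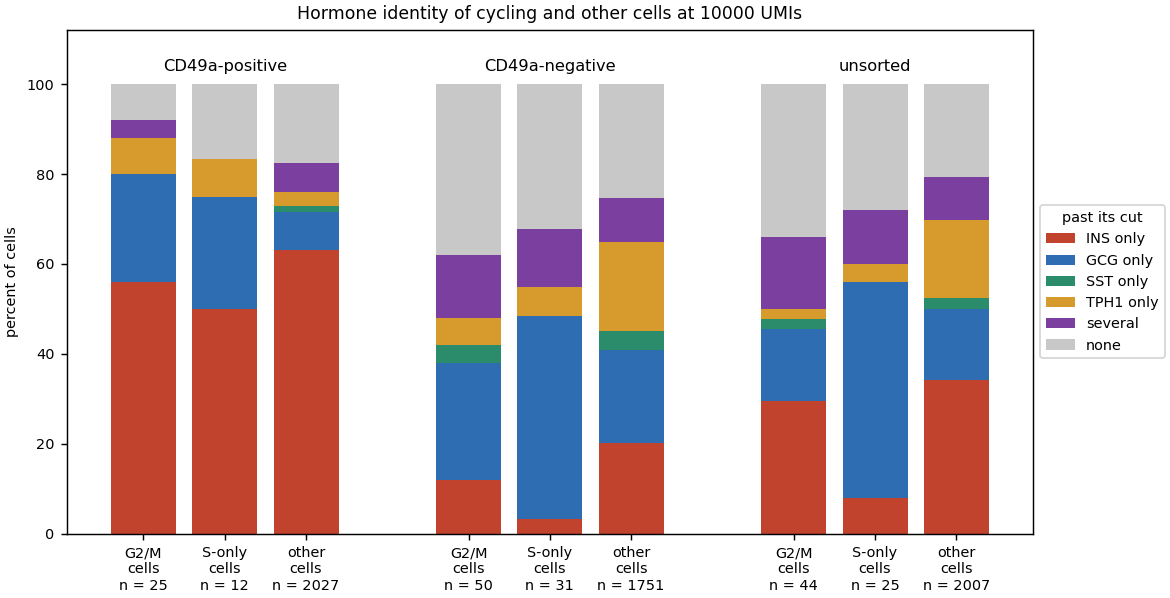
Percent of cells with INS, GCG, SST or TPH1 alone, several or none past its cut, for cells with at least 5 G2 and mitosis members (G2/M), cells past the S-phase cut alone (S-only) and cells past neither cut (other), in the CD49a-positive, CD49a-negative and unsorted libraries. The number of cells stands under each bar. INS alone makes up 56% of the CD49a-positive G2/M cells, 12% of the CD49a-negative and 29.5% of the unsorted ones.

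Turned round, the share of G2/M cells within an identity was compared between libraries. Among cells with INS alone, 14 of 1298 (1.08%, 0.591 to 1.8%) of the CD49a-positive, 6 of 359 (1.67%, 0.616 to 3.6%) of the CD49a-negative and 13 of 703 (1.85%, 0.988 to 3.14%) of the unsorted cells passed the G2 and mitosis cut. Among cells with GCG alone, 6 of 182 (3.3%, 1.22 to 7.04%) of the CD49a-positive, 13 of 390 (3.33%, 1.79 to 5.63%) of the CD49a-negative and 7 of 333 (2.1%, 0.849 to 4.28%) of the unsorted cells did. The CD49a-positive over CD49a-negative ratio was 0.645 (0.233 to 2.05) for INS cells and 0.989 (0.308 to 2.79) for GCG cells, so a difference was not detectable within either at this number of cells. Among cells with no hormone past its cut it was 0.138 (0.0156 to 0.574), from 2 of 358 (0.559%, 0.0677 to 2%) of the CD49a-positive and 19 of 471 (4.03%, 2.45 to 6.23%) of the CD49a-negative cells; the unsorted value was 15 of 437 (3.43%, 1.93 to 5.6%). This ratio was 0.188 (0.00432 to 1.32) with a hormone cut of 100 UMIs, an interval that includes 1, and 0.396 (0.186 to 0.79) with a cut of 500, both computed after the data were seen. At least 1 cut was passed by 9 of 182 (4.95%, 2.29 to 9.18%) of CD49a-positive, 27 of 390 (6.92%, 4.61 to 9.91%) of CD49a-negative and 19 of 333 (5.71%, 3.47 to 8.77%) of unsorted GCG cells. For INS cells these shares were 20 of 1298 (1.54%, 0.944 to 2.37%), 7 of 359 (1.95%, 0.787 to 3.98%) and 15 of 703 (2.13%, 1.2 to 3.49%), below those of GCG cells in all 3 libraries, although the intervals of GCG and INS cells overlap in the CD49a-positive and unsorted libraries. For TPH1 cells they were 3 of 67 (4.48%, 0.933 to 12.5%), 5 of 351 (1.42%, 0.464 to 3.29%) and 2 of 354 (0.565%, 0.0685 to 2.03%), above INS cells in the CD49a-positive library and below them in the other 2. INS RNA was also found in cells not called by it: cells with GCG alone carried a median of 55.5 INS UMIs in 10000 in the CD49a-positive, 53 in the CD49a-negative and 56 in the unsorted library, while cells with INS alone carried a median of 1, 2 and 2 GCG UMIs.

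The G2/M cells carried endocrine genes. CHGA had a median of 66 UMIs in 10000 in CD49a-positive, 93.5 in CD49a-negative and 94.5 in unsorted cells past the G2 and mitosis cut, against 92, 104 and 101 in the other cells. The 6 pan-endocrine markers summed to under 10 UMIs in 0, 1 and 2 of the G2/M cells of these libraries. Marker lists of other cell types differed in level. All 7 mesenchymal markers summed to 7.23 CPM in G2/M and 2.59 CPM in other CD49a-positive cells, 18.0 and 6.43 CPM in CD49a-negative cells and 16.0 and 2.79 CPM in unsorted cells, higher in G2/M cells in each library. Over all libraries COL3A1 stood at 8.48 CPM in G2/M and 0.786 CPM in other cells and COL1A2 at 4.17 and 1.67 CPM. COL1A1 stood at 1.3 and 1.01 CPM and LUM at 0.913 and 0.0457 CPM. DCN, PDGFRA and PDGFRB were at 0 in the G2/M cells and at only 0.0261 to 0.0848 CPM in the others. The highest sum in 1 G2/M cell was 1, 6 and 17 UMIs in 10000 in the CD49a-positive, CD49a-negative and unsorted libraries. Any mesenchymal UMI was found at that depth in 4 of 25 (16%), 4 of 50 (8%) and 2 of 44 (4.55%) G2/M cells. Among the other cells the share was 2.01, 1.96 and 2.07% in that order. In the CD49a-negative and unsorted libraries the top G2/M cell held 60 and 89.5% of the thinned mesenchymal UMIs of G2/M cells. In the CD49a-positive library it held 25%, since no G2/M cell there had more than 1 such UMI. The CPM values rest on UMIs before thinning. The 5 pluripotency markers summed to 4.22 CPM in G2/M and 1.08 CPM in other CD49a-positive cells. Their sums were 4.08 against 1.92 CPM in CD49a-negative and 4.24 against 1.2 CPM in unsorted cells. SOX2 was the largest part in G2/M cells, at 3.01, 3.74 and 2.28 CPM in CD49a-positive, CD49a-negative and unsorted cells. The other cells held 0.41, 0.989 and 0.452 CPM of it in that order. NANOG was lower in CD49a-negative G2/M cells, at 0.34 against 0.816 CPM. It differed little in CD49a-positive cells, at 0.603 against 0.578 CPM, and in unsorted cells, at 0.652 against 0.64 CPM. LIN28A stood at 0.603 against 0.0418 CPM in CD49a-positive, 0 against 0.0618 CPM in CD49a-negative and 1.3 against 0.0753 CPM in unsorted cells. It rested on 5 UMIs in the G2/M cells. POU5F1 and TDGF1 were at 0 in the G2/M cells. In all the other cells they had only 13 and 0 UMIs. Any pluripotency UMI was found in 1 of 25 (4%), 1 of 50 (2%) and 3 of 44 (6.82%) G2/M cells of these libraries at 10000 UMIs. Among the other cells the share was 1.32, 1.63 and 0.738%. The 6 duct markers summed to 94.6 against 52.9 CPM, 103 against 94.9 CPM and 98.4 against 69.9 CPM in the same order. KRT19 made up most of the sums, at 83.2 against 36.5 CPM, 69.4 against 60.4 CPM and 69.8 against 46.3 CPM. The other duct markers did not rise together. KRT7 and SOX9 were lower in the G2/M cells of each library, and CFTR, SPP1 and ANXA2 changed direction between libraries. The 5 neural markers, at 778 to 854 CPM in G2/M and 868 to 921 CPM in other cells, and the 5 hepatic or intestinal markers, at 92.8 to 109.5 CPM and 112 to 123 CPM, were lower in G2/M cells in each library. The 5 acinar markers were at most 1.36 CPM and the 4 endothelial markers at most 0.34 CPM in the G2/M cells of any library, with PECAM1, CDH5 and KDR at 0. The part of these markers in the shares and levels of the members was not tested. VIM, an intermediate filament gene, had medians of 2, 6.5 and 3.5 UMIs in G2/M cells of these libraries against 0, 3 and 1 in the others.

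With 1 library a group, the sort cannot be told apart from any other difference between the 3 cultures or their preparation.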

How the data were processed

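The 3 libraries are droplet single-cell RNA sequencing of sorted and unsorted HUES8 islet cells. The authors deposited UMI counts per gene and barcode, made with Cell Ranger 7.1.0 on GRCh38 per the submitters' processing notes; read assignment settings are not given in the sources used here. Depth was 88397368 to 127119509 UMIs per library. Barcodes with 1000 genes or more and no more than 20% mitochondrial UMIs entered as cells, and their counts were summed per library and scaled to CPM. Ratios of CPM carry no pseudocount and have exact conditional binomial 95% intervals, levels exact Poisson intervals and shares Clopper-Pearson intervals; all cover counting error only. Genes with at least 50 UMIs in the higher library entered the 1.5-fold rule, and genes with at least 50 UMIs over both cell sets the counts of G2/M against other cells. For shares of cells, each cell was thinned to 10000 UMIs with a fixed seed. Doublets were not removed; cells with several hormones were counted apart. No test was made, since a group is 1 library. The 40 members and all gene lists were chosen with earlier results of these data known. Values in each library are given for the 8 members per phase list with the most UMIs and for members at least 1.5-fold apart between CD49a-positive and CD49a-negative cells with an interval outside 1. In the other lists, the 3 genes with the most UMIs and genes at least 2-fold apart are named. Gene positions came from GENCODE release 29. The scripts (Python 3.11.15, numpy 2.4.6, scipy 1.17.1, pandas 2.3.3) were tested on simulated data. The alternatives tried were other scalings, cell filters, cuts, depths, lists and folds.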

Additional observations from a re-analysis of the deposited data

How the results depend on the processing

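Of 320 member ratios of CD49a-positive over CD49a-negative cells recomputed under 8 alternatives, 318 were below 1; the exceptions were CCNE2 at 1.02 with size factors and 1.03 without the 5% deepest cells. The causes of the shifts below were not tested. Summed ratios of CD49a-positive over CD49a-negative cells, S-phase then G2 and mitosis members, came to 0.733 and 0.547 under size factors (median of ratios), 0.712 and 0.531 without hormone and mitochondrial genes, 0.714 and 0.546 with 10 CPM added, and 0.716 and 0.625 under a stricter filter of 2000 genes and 10% mitochondrial UMIs. With each cell weighted equally the S-phase ratio was 0.716, and the median log2 ratio of all genes was then -0.12. Without the 5% deepest cells the G2 and mitosis ratio was 0.448. Over unsorted cells, CD49a-positive sums were 0.837 and 0.705 with size factors, 0.835 and 0.715 with the stricter filter, and 0.791 and 0.578 without the deepest cells. The G2 and mitosis sum was 0.6 with equal cell weights and 0.708 with 10 CPM added. CD49a-negative over unsorted sums were 1.11 and 1.19 with equal cell weights, 1.13 for S phase without the deepest cells and 1.14 for G2 and mitosis with the stricter filter.

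Members at least 1.5-fold lower in CD49a-positive than in unsorted cells numbered 22 with equal cell weights, 23 without the deepest cells and 0 with 10 CPM added, which also left 1 lower than in CD49a-negative cells; at these low levels 10 CPM shrinks every ratio. With a fold of 2 the counts were 2 and 15. The count higher in CD49a-negative than in unsorted cells was 1 with equal cell weights and 0 with size factors, without hormone and mitochondrial genes, with 10 CPM added, with the stricter filter, without the deepest cells and with a fold of 2.

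Shares of cells past the S-phase cut in CD49a-positive, CD49a-negative and unsorted cells were 5.09, 7.81 and 7.08% at a cut of 3, 0.581, 1.58 and 1.3% at a cut of 8, 17.5, 18.3 and 18% without thinning, 0.657, 1.94 and 1.58% at 5000 UMIs, 2.46, 5.62 and 4.9% at 20000 UMIs and 0.872, 2.13 and 1.73% with shorter lists. For the G2 and mitosis cut they were 3.01, 5.47 and 4.7% without thinning. At a cut of 3 they were 3.93% in CD49a-negative and 3.23% in unsorted cells, and in unsorted cells 1.45% at a cut of 8 and 1.49% at 5000 UMIs. With a hormone cut of 100, G2/M cells past no cut made up 20% in the CD49a-negative and 15.9% in the unsorted library. With a cut of 500 they made up 48, 64 and 50% in the CD49a-positive, CD49a-negative and unsorted libraries, INS alone was found in 32% of the CD49a-positive ones, and GCG alone in 8% of the CD49a-positive and 14% of the CD49a-negative ones. S-phase over G2 and mitosis UMIs without the 2 top members of each list were 0.963, 0.749 and 0.819, so the CD49a-positive and unsorted values crossed to below 1. No paired analysis was possible because each group is 1 library. The number of G2/M cells, 25 to 50 a library, limits what can be seen within a hormone class.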

Other observations

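Of the 4 endocrine progenitor markers, 3 were higher in G2/M than in other cells over all libraries (all genes: 49.1%). Within the CD49a-positive library 2 of the 4 were higher (all genes: 9860 of 18381). The endocrine progenitor markers NEUROG3, SOX4, PAX4 and HES6 summed to a higher level in G2/M cells than in the other cells of each library. The sums were 415 CPM in G2/M against 252 CPM in other CD49a-positive cells, 329.8 against 244 CPM in CD49a-negative cells and 404 against 252 CPM in unsorted cells. SOX4, a transcription factor and the largest part of the sums, was at 299.6, 241 and 286 CPM in the G2/M cells of the CD49a-positive, CD49a-negative and unsorted libraries, against 147, 149.9 and 151 CPM in the other cells. NEUROG3 was lower in CD49a-positive G2/M cells, at 2.41 against 4.44 CPM. It was higher in CD49a-negative ones, at 7.14 against 5.68 CPM, and in unsorted ones, at 9.45 against 6.61 CPM. HES6 was higher in the G2/M cells of all 3 libraries, at 55.5, 32.6 and 43.7 CPM against 19.5, 18.3 and 19.5 CPM in the others. PAX4, a factor of early endocrine cells, was lower in the G2/M cells of all 3 libraries, at 57.3, 49.0 and 65.2 CPM against 81.5, 69.7 and 75.2 CPM in the others. These genes were named after their values were seen.

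All 8 genes of the beta cell list were lower in G2/M than in other cells in each library, with no size required, where 46.4% of all genes were lower in CD49a-positive, 54.2% in CD49a-negative and 52.2% in unsorted cells. Over all libraries the median fold of the 8 was 0.685 against 0.993 over all genes, and 2 were at least 2-fold lower (all genes: 7.36%). IAPP, the islet amyloid peptide, stood at 565 CPM in G2/M and 1708 CPM in other CD49a-positive cells, at 536 and 731 CPM in CD49a-negative cells and at 625 and 1248 CPM in unsorted cells. G6PC2, an islet glucose-6-phosphatase, stood at 4.82 and 20.2 CPM, 4.76 and 8.89 CPM, and 4.24 and 11.0 CPM in the same order. IAPP and G6PC2 were named after their values were seen, and hormone identity differs between the cell sets.

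Among barcodes that the cell filter removed, 73 CD49a-positive, 97 CD49a-negative and 109 unsorted barcodes had 10000 UMIs or more. At least 5 G2 and mitosis members were detected in 1 of 73 (1.37%, Clopper-Pearson 0.0347 to 7.40%), 0 of 97 and 0 of 109 of them. By the rule of 3 counts, a count of 0 allows a share of up to 3.09% in the CD49a-negative and 2.75% in the unsorted library, and the Clopper-Pearson upper limits are 3.73% and 3.33%.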
